A study of Mus musculus with 34 samples.

Results

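The SLC25 family of mitochondrial solute carriers was followed through aged mouse hippocampus and sorted GFAP+ cortical nuclei. Every gene in the deposited files whose symbol begins with Slc25a was taken as a member, which gave 47 of the 23951 genes listed. SLC25 proteins are short membrane proteins, encoded in the nucleus, that sit mostly in the inner mitochondrial membrane and exchange metabolites between the matrix and the cytosol. Different members carry ADP and ATP, phosphate, amino acids, keto acids, acylcarnitines, nucleotides, cofactors, iron and glutathione. In brain they supply the respiratory chain with its substrates, and the aspartate/glutamate carriers link cytosolic glycolysis to mitochondrial respiration in neurons.

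The study asked what loss of HDAC1, a class I histone deacetylase, does to gene expression in the aging brain with and without amyloid pathology. Hippocampal RNA of 4 control, 5 Hdac1 cKO, 6 5XFAD and 5 compound mice was measured, together with cortical GFAP+ nuclei of 3 control mice and 4 Hdac1 cKO mice. All mice carried floxed Hdac1 alleles. Controls were Hdac1f/f without Cre. Hdac1 cKO mice were Hdac1f/f with Nestin-Cre, which is active in the neural lineage and deletes the gene in neurons and astrocytes, while microglia keep it. 5XFAD mice were Hdac1f/f and carried the amyloid-model transgenes of that name under the Thy1 promoter, which is active in neurons. Compound mice (Hdac1 cKO; 5XFAD) carried Nestin-Cre and the 5XFAD transgenes together. The labels give an age of 13 to 14 months for control and Hdac1 cKO hippocampus and of 13 months for 5XFAD and compound hippocampus, and the nuclei came from mice of 13 months. The labels describe library preparation of the control and Hdac1 cKO hippocampi in other words than that of the 5XFAD and compound hippocampi. Whether all 20 were prepared together is not given in the sources used here, so in the comparisons of 5XFAD or compound with control, and of compound with Hdac1 cKO, preparation and genotype cannot be told apart. The same 4 controls serve in the comparisons with Hdac1 cKO, 5XFAD and compound mice.

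The summed FPKM of a library lay between 725060 and 881139 in the hippocampus and between 465218 and 525685 in the nuclei. Relative depth, read from the smallest steps between FPKM values, ran from 0.754 to 2.35 times that of the first control library in the hippocampus and from 0.869 to 1.26 times that of the first control library in the nuclei. Hdac1 itself was at 5.91 to 10.7 FPKM in control hippocampus and at 2.36 to 3.03 in Hdac1 cKO hippocampus. It was at 6.10 to 9.64 FPKM in 5XFAD and at 1.15 to 2.52 in compound hippocampus. In the GFAP+ nuclei the Hdac1 values of the groups overlapped, with 14.5, 9.91 and 22.3 FPKM in the controls and 9.71, 11.5, 5.80 and 8.73 in the Hdac1 cKO mice (log2 fold change -0.70 ± 0.28 SE, 95% interval -1.32 to -0.08, limma, Benjamini-Hochberg adjusted p = 0.984). With an unadjusted limma p of 0.0308 and a change past 1.5-fold Hdac1 was lower in the Hdac1 cKO nuclei, although single libraries of the 2 groups overlapped. Thy1, whose promoter drives the transgenes, was at 303 to 388 FPKM in the hippocampi without 5XFAD and at 1563 to 2357 in those with it. The nuclei were rich in the astrocyte markers Slc1a3 and Slc1a2 (means of 831 and 688.5 FPKM in the control nuclei), while the neuronal marker Snap25 at 136 and the oligodendrocyte marker Mbp at 450.0 were also present. None of the 7 neuronal markers listed was at 0 throughout the hippocampal libraries. The 7 choroid plexus markers, of which Ttr is the most abundant, summed to 589 to 20450 FPKM in control, 59.8 to 1632 in Hdac1 cKO, 56.1 to 7996 in 5XFAD and 62.2 to 14050 in compound hippocampi. In bulk tissue, fewer cells of a type and less RNA per cell cannot be told apart.

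In the mm9 gene annotation (GENCODE vM1), 44 members were found by symbol and 2, Slc25a53 and Slc25a54, by an older name. The members whose values are given in most detail are Slc25a29 at chr12:110064083-110074093 (minus strand), Slc25a13 at chr6:5991219-6167173 (minus), Slc25a40 at chr5:8422850-8454790 (plus), Slc25a23 at chr17:57183134-57199286 (minus) and Slc25a34 at chr4:141174739-141179736 (minus). The members are spread over the genome, with 4 pairs of neighbours less than 50 kb apart. Slc25a41 and Slc25a23, both ATP-Mg/phosphate carriers, lie 2.06 kb apart on chromosome 17. Slc25a54 and Slc25a24 lie 6.46 kb apart on chromosome 3, Slc25a29 and Slc25a47 lie 15.2 kb apart on chromosome 12, and Slc25a43 and Slc25a5 lie 18.4 kb apart on chromosome X. Exons of Slc25a11, Slc25a21, Slc25a25, Slc25a26, Slc25a35 and Slc25a46 overlap exons of a gene on the other strand (Rnf167, Pax9, Naif1, Lrig1, Rangrf and B930094E09Rik), and their FPKM values may include its reads if strand was not used in counting. The ADP/ATP carriers Slc25a4 and Slc25a5 are near copies of each other, and how reads that fit both were divided is not given in the sources used here.

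The study examined guanine-rich promoters, so the sequence upstream of the members was read from the RefSeq promoter table (GRCm38.p6), which held 36 of the 47 members. The GC-box core GGGCGG, searched on both strands in the 250 bases before each start, was present for 25 of these 36 members (69.4%) and for 7811 of the 16745 listed genes with a promoter (46.6%). Their median GC content was 57.4% against 56% for all such genes. The paper searched known motifs in a wider window on both sides of the start of its changed genes. The shares given here are another measure and cannot be set against its motif result. Shown are the upstream 250 bases of Slc25a29 and Slc25a13, the 2 members with an unadjusted p under 0.05 between Hdac1 cKO and control hippocampus, one higher and one lower. Each is printed 5′ to 3′ on the gene's own strand, which is the minus strand for both, with the core in capitals as it reads on that strand. The windows are chr12:108835877-108836126 and chr6:6217174-6217423.
Slc25a29: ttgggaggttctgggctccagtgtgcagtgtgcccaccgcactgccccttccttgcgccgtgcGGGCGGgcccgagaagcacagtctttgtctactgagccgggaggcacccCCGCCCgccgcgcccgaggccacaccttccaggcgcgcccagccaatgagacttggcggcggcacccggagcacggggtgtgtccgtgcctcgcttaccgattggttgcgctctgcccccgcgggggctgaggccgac
Slc25a13: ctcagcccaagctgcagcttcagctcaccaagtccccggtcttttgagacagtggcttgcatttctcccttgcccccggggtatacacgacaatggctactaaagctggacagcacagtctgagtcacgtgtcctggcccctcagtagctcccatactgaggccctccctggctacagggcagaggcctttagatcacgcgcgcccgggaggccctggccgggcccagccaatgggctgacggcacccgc
The Slc25a29 window had a GC content of 71.2% and 2 cores, 1 in each orientation, and the Slc25a13 window had 62.8% and none. A match is a description of these letters and not of a bound site.

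Levels in the family spanned a wide range. Of the 47 members, 3 had a mean over the 20 hippocampal libraries of at least 100 FPKM, 14 lay between 10 and 100, 17 between 1 and 10, and 13 below 1. FPKM divides by transcript length although the hippocampal libraries read 3′ ends, so the order of genes is the order of these deposited values. In the hippocampus Slc25a4, Slc25a3 and Slc25a5 stood above all others, and the fourth, Slc25a11, was at 58.6 FPKM. The coefficient of variation within groups was 8.30% to 12.1% for the 3 most abundant members, 9.05% to 23.5% for the next 14, 11.7% to 58.9% for the 17 between 1 and 10 FPKM and 40.5% to 224% for the 13 below 1 FPKM. Its median rose from 11.4% to 14.6%, 28.0% and 132% in that order, but the ranges of neighbouring levels overlapped.

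**Figure D1:**
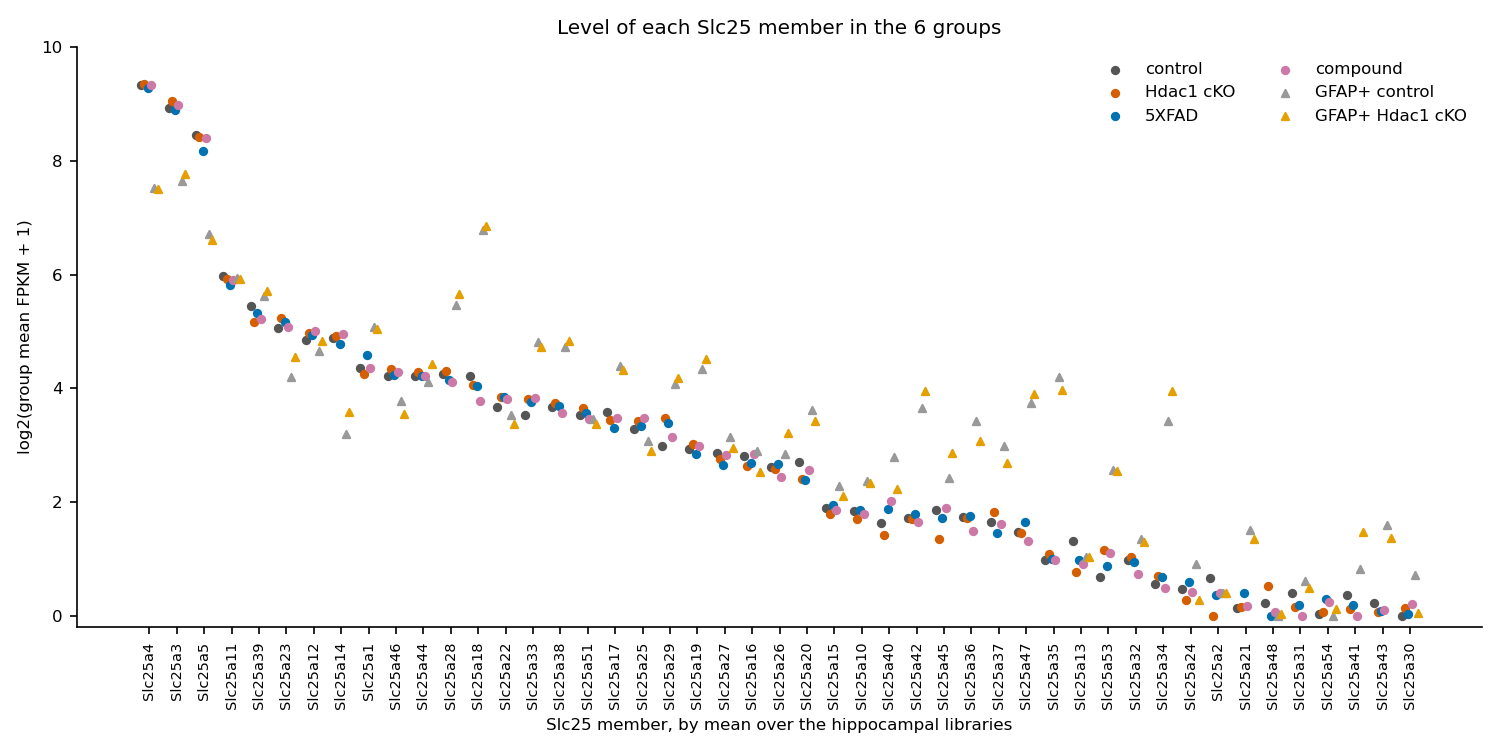
Mean level of each of the 47 members in the 6 groups, as log2(group mean FPKM + 1), ordered by the mean over the hippocampal libraries. Circles are the 4 hippocampal groups and triangles the 2 groups of GFAP+ nuclei. The 4 circles lie close together for Slc25a4, Slc25a3 and Slc25a5, while the triangles lie below them for these 3 genes and far above them for Slc25a18, Slc25a35 and Slc25a34.

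Adenine nucleotide translocases, which exchange matrix ATP for cytosolic ADP, were the most abundant class. Slc25a4 was at 611, 648, 623 and 701 FPKM in the controls, at 711, 716, 742, 533 and 574 in the Hdac1 cKO mice, between 563 and 695 with a median of 613 in the 5XFAD mice, and at 617, 654, 783, 567.9 and 596 in the compound mice. The 4 groups overlapped throughout. Its log2 fold changes between hippocampal groups lay between -0.06 and 0.04, with 95% intervals that all stayed within 1.5-fold in either direction. Slc25a5, the second translocase, was at 329, 319, 393 and 359 FPKM in the controls, at 339.6, 369, 360.4, 313 and 329 in the Hdac1 cKO mice, between 207 and 379 with a median of 289 in the 5XFAD mice, and at 372, 371, 331, 304 and 308 in the compound mice. Only the 5XFAD mice reached below 300 FPKM. The ratio of Slc25a4 to Slc25a5 was 1.86 ± 0.19 (SD, n = 4) in the controls, 1.91 ± 0.18 (n = 5) in the Hdac1 cKO, 2.22 ± 0.50 (n = 6) in the 5XFAD and 1.92 ± 0.27 (n = 5) in the compound mice. Slc25a31, the remaining member of the class and known from testis, had a mean of 0.14 FPKM over the hippocampal libraries and was listed at 0 in 13 of 20.

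Slc25a3 imports the inorganic phosphate needed for ATP synthesis. It was at 442, 499.8, 521 and 489.6 FPKM in the controls, at 504, 567.9, 595, 472 and 511 in the Hdac1 cKO mice, between 401 and 519.9 with a median of 470.5 in the 5XFAD mice, and at 495, 553, 482, 475 and 529 in the compound mice. The groups overlapped, and its log2 fold changes lay between -0.06 and 0.12. Together Slc25a3, Slc25a4 and Slc25a5 made up 75.8% to 80.5% of the members' summed FPKM in the hippocampal libraries. That sum was 1600.3 to 2144 FPKM, or 0.207% to 0.267% of all FPKM in a library.

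The ATP-Mg/phosphate carriers adjust the adenine nucleotide pool of the matrix, and the larger ones are activated by calcium. Slc25a23 was at 35.3, 32.6, 27.8 and 34.5 FPKM in the controls, at 37.8, 33.6, 36.7, 37.6 and 37.9 in the Hdac1 cKO mice, between 30.5 and 38.1 with a median of 35.3 in the 5XFAD mice, and at 32.3, 27.4, 37.9, 31.9 and 34.0 in the compound mice. Control and Hdac1 cKO values overlapped (log2 fold change 0.17 ± 0.09 SE, limma adjusted p = 0.498, exact permutation p = 0.0476). Slc25a25 had a hippocampal mean of 9.45 FPKM, and Slc25a24 and Slc25a41 were below the filter of 0.5 FPKM.

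Among the aspartate and glutamate carriers, Slc25a12 (aralar) is the neuronal aspartate/glutamate exchanger. It was at 27.4, 27.5, 29.9 and 25.9 FPKM in the controls, at 28.5, 31.4, 32.7, 28.3 and 30.8 in the Hdac1 cKO mice, between 22.6 and 34.2 with a median of 30.1 in the 5XFAD mice, and at 31.5, 30.3, 27.7, 30.1 and 36.2 in the compound mice. The groups overlapped, and the largest difference between hippocampal groups was 0.16 ± 0.10 SE on the log2 scale, in compound against control mice (limma adjusted p = 0.608). Slc25a13 (citrin), its liver-type partner, was much lower at 0.99 FPKM over the hippocampal libraries. The glutamate carriers Slc25a18 and Slc25a22 had hippocampal means of 15.2 and 13.0 FPKM.

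Slc25a14, a brain carrier named for its likeness to uncoupling proteins, led its class. It was at 21.2, 30.7, 30.2 and 31.6 FPKM in the controls, at 28.3, 35.1, 29.1, 31.6 and 22.6 in the Hdac1 cKO mice, between 17.8 and 30.4 with a median of 27.8 in the 5XFAD mice, and at 27.8, 31.1, 28.5, 31.2 and 31.8 in the compound mice. One control and 1 Hdac1 cKO mouse lay low and the groups overlapped. Slc25a11 exchanges oxoglutarate for malate. Its values were 63.5, 51.3, 68.8 and 63.3 FPKM in the controls, 52.1, 60.5, 70.0, 59.6 and 57.3 in the Hdac1 cKO mice, between 37.1 and 63.6 with a median of 57.1 in the 5XFAD mice, and 62.9, 66.7, 62.1, 45.6 and 56 in the compound mice. All 4 groups shared the range around 60 FPKM.

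Slc25a44, a carrier of branched-chain amino acids, was the most abundant member of the carnitine and amino acid class. It was at 16.4, 17.4, 17.1 and 19.4 FPKM in the controls, at 16.9, 16.3, 18.4, 20.3 and 21.0 in the Hdac1 cKO mice, between 15.5 and 20.2 with a median of 16.8 in the 5XFAD mice, and at 16.1, 18.9, 15.6, 18.9 and 18.9 in the compound mice. Its groups overlapped throughout. Slc25a33, a pyrimidine nucleotide carrier, led the nucleotide and cofactor class with 9.16, 9.70, 10.7 and 12.5 FPKM in the controls, 8.28, 15.3, 17.9, 13.1 and 10.9 in the Hdac1 cKO mice, between 9.65 and 16.3 with a median of 12.8 in the 5XFAD mice, and 12.9, 16.3, 10.5, 12.8 and 13.2 in the compound mice. Of the 5 compound values 4 lay above every control (0.29 ± 0.14 SE on the log2 scale, limma adjusted p = 0.493, exact permutation p = 0.0476), and the groups overlapped.

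Slc25a39, a carrier needed for glutathione import into mitochondria, was the most abundant of the iron and glutathione class. It was at 32.4, 43.7, 53.9 and 40.8 FPKM in the controls, at 32.6, 33.0, 42.3, 37.4 and 28.2 in the Hdac1 cKO mice, between 33.7 and 47.5 with a median of 38.0 in the 5XFAD mice, and at 34.4, 36.4, 32.9, 37.1 and 41.3 in the compound mice. One control stood highest and the groups overlapped (Hdac1 cKO against control -0.28 ± 0.15 SE on the log2 scale, limma adjusted p = 0.491). Slc25a46, an outer membrane protein involved in mitochondrial dynamics, led the remaining members. Its values were 15.1, 16.5, 17.2 and 21.6 FPKM in the controls, 21.5, 18.0, 18.9, 17.2 and 21.0 in the Hdac1 cKO mice, between 15.5 and 18.9 with a median of 18.1 in the 5XFAD mice, and 18.6, 17.8, 17.4, 19.6 and 18.7 in the compound mice. The 4 groups overlapped.

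In the GFAP+ nuclei the family had another make-up. These libraries were made by another method from another brain region and normalised on their own, so levels are set side by side without a test. The members' sum was 966 to 1242 FPKM, or 0.203% to 0.246% of all FPKM. Slc25a3, Slc25a4 and Slc25a5 made up 39.3% to 45.8% of it. Slc25a3 was at 230.4, 171 and 193 FPKM in the control and at 256, 194, 214 and 209 in the Hdac1 cKO nuclei. Slc25a4 was at 192, 230.1 and 128 FPKM in the control and at 156, 144, 196 and 223 in the Hdac1 cKO nuclei. Slc25a5 was at 109.6, 130.4 and 70.0 FPKM in the control and at 96.1, 72.8, 118 and 97.0 in the Hdac1 cKO nuclei. For all 3 genes the 2 groups of nuclei overlapped. Slc25a18, a glutamate carrier known from astrocytes, had rank 3 of the 47 in the nuclei and rank 13 in the hippocampus. It was at 97.5, 112 and 117 FPKM in the control and at 125, 73.3, 112 and 147 in the Hdac1 cKO nuclei, against 7.90 to 24.9 in the 20 hippocampal libraries. Its share of the members' sum was 7.59% to 11.9% in the nuclei and 0.401% to 1.26% in the hippocampus. For the level and the share of Slc25a18 the ranges of the 2 kinds of library did not meet. This was not particular to Slc25a18. The levels of Slc25a3, Slc25a4, Slc25a5, Slc25a14, Slc25a28, Slc25a34, Slc25a35 and further members did not meet either.

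Several members in the lower part of the hippocampal order were well detected in the nuclei. Slc25a35, an orphan carrier, had a mean of 15.9 FPKM over the 7 nuclei libraries and of 1.02 over the 20 hippocampal ones. Slc25a34, related to it in sequence, had means of 12.5 and 0.54 FPKM, Slc25a47 of 13.3 and 1.8, and Slc25a42, a coenzyme A carrier, of 13.2 and 2.28. In the other direction Slc25a14 had a mean of 9.80 FPKM in the nuclei and 28.4 in the hippocampus. Slc25a11 was about level, with 59.8 FPKM in the nuclei and 58.6 in the hippocampus.

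**Figure D2:**
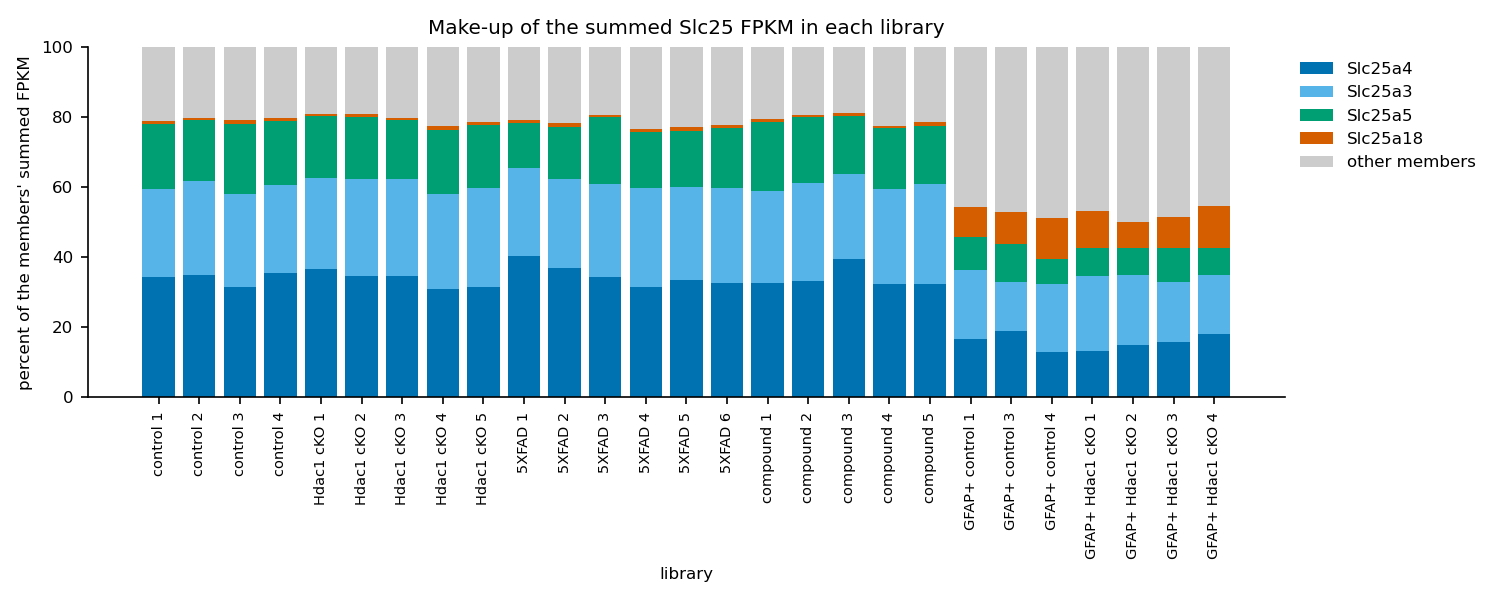
Share of the members' summed FPKM, in percent, taken by Slc25a4, Slc25a3, Slc25a5, Slc25a18 and all other members in each of the 27 libraries. Slc25a3, Slc25a4 and Slc25a5 take 75.8% to 80.5% in the 20 hippocampal libraries and 39.3% to 45.8% in the 7 nuclei libraries, where Slc25a18 takes 7.59% to 11.9%.

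With loss of Hdac1 and no amyloid transgenes, few carriers differed from control by more than the replicate spread, and none after adjustment. Of the 47 members, 38 passed the filter of a mean of at least 0.5 FPKM. The other 9 were Slc25a2, Slc25a21, Slc25a24, Slc25a30, Slc25a31, Slc25a41, Slc25a43, Slc25a48 and Slc25a54. A DEG is a gene with a change of at least 1.5-fold and an unadjusted p under 0.05. Between Hdac1 cKO and control hippocampus 2 of the 38 tested members had an unadjusted limma p under 0.05, where 11.7% of all genes tested did. One of the 38 was a DEG, where 3.36% of all genes were, and 0 had an adjusted p under 0.05, where 0.154% of all genes did. For 0 of the 38 did the values of the groups not overlap, against 4.23% of all genes. The median log2 fold change was 0.05 over the members and -0.00068 over all genes, and 22 members had a positive value. For 28 of the 38 (73.7%) the 95% interval lay within 1.5-fold in either direction, as it did for 66.1% of all genes.

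Slc25a29 transports basic amino acids such as arginine and lysine and was the member higher in the Hdac1 cKO mice. It was at 6.62, 8.59, 6.92 and 5.58 FPKM in the controls and at 8.22, 10.1, 13.4, 7.28 and 11.5 in the Hdac1 cKO mice. All but 1 control lay below every Hdac1 cKO mouse, and that control lay above 2 of them. The log2 fold change was 0.47 ± 0.17 SE (95% interval 0.10 to 0.84, limma p = 0.0179, adjusted p = 0.304, exact permutation p = 0.0476). Without control 4, the lowest control, the change was 0.38 with a limma p of 0.0596.

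Slc25a13 was the member that was lower. It was at 1.05, 1.78, 1.69 and 1.43 FPKM in the controls and at 0.21, 0.72, 0.528, 1.69 and 0.402 in the Hdac1 cKO mice. Of the 5 Hdac1 cKO mice, 4 lay below every control and 1 lay among them. The log2 fold change was -0.59 ± 0.23 SE (95% interval -1.08 to -0.09, limma p = 0.0236, adjusted p = 0.326, exact permutation p = 0.0476). The offset of 1 FPKM weighs on so low a gene, as the group means were 1.49 ± 0.33 (SD, n = 4) and 0.71 ± 0.58 (n = 5) FPKM, the log2 ratio of these means was -1.07, and the fold change with an offset of 0.1 FPKM was -1.20. The change fell short of 1.5-fold with quantile scaling (-0.54) and with median scaling (-0.57). Its p by limma was 0.0617 without control 2, 0.0544 without control 3, 0.0594 without Hdac1 cKO 1 and 0.0531 without Hdac1 cKO 5. The choroid plexus markers were lower in most Hdac1 cKO than in most control hippocampi. Their level and genotype are therefore hard to separate in a fit. With their mean level as a covariate Slc25a29 stood at 0.67 with a limma p of 0.0511 and Slc25a13 at -0.46 with a limma p of 0.282 on the log2 scale. Without Hdac1 cKO 3 the change of Slc25a13 fell short of 1.5-fold. In the GFAP+ nuclei the Hdac1 cKO effect on Slc25a29 was 0.08 ± 0.23 SE and that on Slc25a13 -0.00 ± 0.30 SE on the log2 scale (limma adjusted p = 0.996 and 0.999).

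Below these, Slc25a53, an orphan carrier, had a log2 fold change of 0.52 ± 0.27 SE and Slc25a45 one of -0.42 ± 0.38 SE (limma adjusted p = 0.483 and 0.723). Slc25a2, an ornithine carrier under the filter, was at 0.537, 1.22, 0 and 0.549 FPKM in the controls and listed at 0 in all 5 Hdac1 cKO mice. In the compound mice, which also carry the Hdac1 cKO, it was at 0.563, 0, 0, 0.360 and 0.660 FPKM, and in 4 of the 6 5XFAD mice it was listed at 0. The groups overlap, and this gene was chosen after its values were seen.

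The 5XFAD transgenes on intact Hdac1 gave a similar count. Of 38 members tested against control, 2 had an unadjusted limma p under 0.05, where 10.7% of all genes did. None was a DEG (0, where 2.95% of all genes were), 0 had an adjusted p under 0.05 (0.708% of all genes), and 0 had groups that did not overlap (2.9% of all genes). The 95% interval lay within 1.5-fold for 27 of the 38 (71.1%), against 63.1% of all genes. Slc25a29 was at 7.76 to 12.4 FPKM with a median of 8.89 in the 5XFAD mice, and only the highest control at 8.59 lay within that range. Its log2 fold change was 0.39 ± 0.15 SE (95% interval 0.07 to 0.72, limma p = 0.0221, adjusted p = 0.377, exact permutation p = 0.0381). Without control 4 it was 0.31 with a limma p of 0.0815, and with the choroid plexus markers as a covariate it was 0.35 with a limma p of 0.0652. Slc25a5 was lower by a smaller amount, with a log2 fold change of -0.30 ± 0.14 SE (95% interval -0.59 to -0.00, limma p = 0.0496, adjusted p = 0.466, exact permutation p = 0.0667). The 5XFAD library with the lowest Slc25a5, at 207 FPKM, was also the one with the lowest summed FPKM. In the same comparison the 7 microglial markers summed to 91.6 to 122 FPKM in the controls and to 178 to 240.3 in the 5XFAD mice. The 7 astrocyte markers summed to 932 to 1047 and 1049 to 1211 FPKM, but did not all move alike. Gfap had means of 25.15 and 97.5 FPKM, while Slc1a3 (129 and 124) and Gja1 (41.5 and 36.7) were lower in the 5XFAD mice. The other listed astrocyte markers had higher means in the 5XFAD mice. The 7 neuronal markers summed to 1533 to 1818 FPKM in the controls and to 1447 to 1633 in the 5XFAD mice (medians 1637 and 1488). They differed in direction, as Snap25, Syt1, Nefl and Gad1 had lower means in the 5XFAD mice. Slc17a7 had means of 17.5 and 22.2 FPKM in control and 5XFAD mice, Rbfox3 of 151 and 156, and Tubb3 of 68.9 in both. The 7 choroid plexus markers had median sums of 15400 and 4377 FPKM. No listed marker of these cell types was at 0 in all libraries, and their part in the Slc25 values was not tested.

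With both alterations together, no carrier stood out against control. In the compound mice 37 members passed the filter, Slc25a34 being the one fewer, and 0 had an unadjusted limma p under 0.05, where 10.5% of all genes did. The counts of DEGs (4.24% of all genes), of adjusted p under 0.05 (0.662%) and of groups that did not overlap (4.27%) were also 0. Slc25a29, with an unadjusted p under 0.05 in either single mutant, was at 6.94, 8.76, 6.47, 10.9 and 6.11 FPKM in the compound mice, of which 3 lay within the control range (0.14 ± 0.18 SE on the log2 scale, 95% interval -0.24 to 0.53, limma adjusted p = 0.839). Slc25a13 was at 1.65, 0.508, 0.14, 1.22 and 0.906 FPKM, scattered from within the control range to far below it (-0.45 ± 0.25 SE, 95% interval -0.99 to 0.09, limma adjusted p = 0.566). Slc25a18 was at 13.5, 7.90, 12.9, 10.2 and 19.0 FPKM in the compound mice and at 15.5, 12.7, 24.9 and 16.9 in the controls. The groups overlapped, and the log2 fold change was -0.45 ± 0.23 SE (limma adjusted p = 0.536). Astrocyte markers moved in the same comparison, the 7 listed summing to 932 to 1047 FPKM in the controls and to 1133 to 1274 in the compound mice. So did the 7 microglial markers, which summed to 91.6 to 122 and to 188 to 350.2 FPKM. The part of these cell types in the Slc25a18 values was not tested. Slc25a13 counted as a DEG without compound 1 and Slc25a18 without compound 5, each then being the 1 member called. For 23 of the 37 (62.2%) the 95% interval lay within 1.5-fold, against 56.4% of all genes.

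The question of what Hdac1 loss adds on the 5XFAD background was addressed by compound against 5XFAD mice. Of 38 members 0 had an unadjusted limma p under 0.05, where 6.61% of all genes did. DEGs (1.28% of all genes), adjusted p under 0.05 (0.00698%) and groups that did not overlap (0.607%) likewise counted 0 members. Changes ran from -0.29 for Slc25a18 to 0.24 for Slc25a5 on the log2 scale. Slc25a5 was at 304 to 372 FPKM in the compound and at 207 to 379 in the 5XFAD mice (0.24 ± 0.13 SE, limma adjusted p = 0.742). For 27 of the 38 (71.1%) the 95% interval lay within 1.5-fold, against 68.6% of all genes.

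The 5XFAD transgenes on the Hdac1 cKO background gave 1 of 38 members with an unadjusted limma p under 0.05, where 10.3% of all genes had one. It was not a DEG (0 members, 3.55% of all genes), 0 had an adjusted p under 0.05 (1.49%) and 0 had groups that did not overlap (3.34%). The member was Slc25a40, the close relative of Slc25a39 in mitochondrial glutathione import. It was at 1.51, 1.68, 1.96, 1.47 and 1.78 FPKM in the Hdac1 cKO and at 4.18, 3.13, 3.02, 3.26 and 1.77 in the compound mice. Of the 5 compound mice, 4 lay above every Hdac1 cKO mouse and 1 lay among them. The log2 fold change was 0.58 ± 0.17 SE (95% interval 0.21 to 0.94, limma p = 0.00444, adjusted p = 0.155, exact permutation p = 0.0238). The group means were 1.68 ± 0.20 (SD, n = 5) and 3.07 ± 0.86 (n = 5) FPKM. It was just short of 1.5-fold on this scale and counted as a DEG with an offset of 0.1 FPKM (0.79) and with the log2 ratio of mean FPKM (0.87). The control values of Slc25a40 were 2.03, 1.75, 2.04 and 2.64 FPKM, and the 5XFAD mice lay between 1.64 and 3.51 with a median of 2.69. The log2 fold change of Slc25a39 in the same comparison was 0.08 ± 0.11 SE (95% interval -0.16 to 0.32). Slc25a40 counted as a DEG without Hdac1 cKO 3, Hdac1 cKO 5 or compound 5, with Slc25a45 as a second in the first and last of these. Glial markers moved in the same comparison. The 7 microglial ones summed to 103 to 120.3 FPKM in the Hdac1 cKO and to 188 to 350.2 in the compound mice. The 7 astrocyte ones summed to 942 to 1062 and 1133 to 1274 FPKM. Of the astrocyte ones Slc1a2 had a lower mean in the compound mice (175.5 and 170.3 FPKM) and the others had higher means. None of these markers was at 0 throughout, and their part in the Slc25a40 values was not tested. For 26 of the 38 (68.4%) the 95% interval lay within 1.5-fold, against 66.8% of all genes.

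In the GFAP+ nuclei 42 members passed the filter, 5 of the low ones (Slc25a2, Slc25a30, Slc25a31, Slc25a48 and Slc25a54) remaining out. Between Hdac1 cKO and control nuclei 2 of the 42 had an unadjusted limma p under 0.05, where 4.7% of all genes did. None was a DEG (0 members, 2.58% of all genes) and 0 had an adjusted p under 0.05 (0.0133%). For 3 of the 42, Slc25a23, Slc25a24 and Slc25a34, the groups did not overlap, against 5.72% of all genes. Slc25a24 was among the 42 only through its control values, so nothing is read from this count. For 16 of the 42 (38.1%) the 95% interval lay within 1.5-fold, against 33.4% of all genes, so this comparison resolves less than the hippocampal ones.

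Slc25a34 was higher in the Hdac1 cKO nuclei. It was at 8.89, 12.2 and 8.08 FPKM in the controls and at 12.3, 12.7, 17.4 and 15.5 in the Hdac1 cKO nuclei, so that the highest control came close to the lowest Hdac1 cKO value. The log2 fold change was 0.54 ± 0.20 SE (95% interval 0.10 to 0.97, limma p = 0.0204, adjusted p = 0.984, exact permutation p = 0.0571, the smallest that 3 against 4 libraries allow). Its p by limma was 0.0628 without control 1, 0.0763 without control 4 and 0.0574 without Hdac1 cKO 3. Slc25a23 was at 16.6, 15.01 and 20.4 FPKM in the controls and at 22.8, 22.8, 22.6 and 21.3 in the Hdac1 cKO nuclei. Its log2 fold change was 0.36 ± 0.15 SE (95% interval 0.02 to 0.70, limma p = 0.0377, adjusted p = 0.984, exact permutation p = 0.0571). Leaving out any nuclei library but control 4 raised its limma p to between 0.0529 and 0.154, the highest without control 3. Slc25a24, of the same class, was at 1.11, 1.24 and 0.308 FPKM in the control and at 0.173, 0.159, 0.274 and 0.25 in the Hdac1 cKO nuclei. Its mean was 0.885 FPKM in the control and 0.214 in the Hdac1 cKO nuclei, so it reached the filter of 0.5 FPKM only through the control libraries, and its values are given with no test. It was the 1 member past the DEG thresholds without control 4, which is not read as a result for the same reason. Leaving out any other library but Hdac1 cKO 4 gave 1 or 2 DEGs, among them Slc25a14 without control 1, Slc25a36 without Hdac1 cKO 3 and Slc25a34 and Slc25a45 without Hdac1 cKO 2. The 7 astrocyte markers summed to 2650 to 3236 FPKM in the control and to 2857 to 3258 in the Hdac1 cKO nuclei, and the 7 neuronal markers to 179.8 to 265 and 179.7 to 207. The 7 choroid plexus markers summed to 17.6 to 150.1 FPKM in the control and to 111 to 268 in the Hdac1 cKO nuclei, none of them at 0 throughout. The 5 endothelial markers summed to 69.2 to 102.6 FPKM in the control and to 44.7 to 81.7 in the Hdac1 cKO nuclei, none at 0 throughout. Among single markers Cldn5 (endothelial) was at 24.9 to 43.2 and 15.6 to 22.1 FPKM and Slc1a3 (astrocyte) at 800.1 to 848 and 867 to 923. Folr1 (choroid plexus) was at 0 to 0.381 and 0.798 to 1.85 FPKM. The groups did not overlap for these markers, nor for 5.72% of all genes tested. Others of the same lists did not follow, with means of 780 and 770 FPKM for Aldoc, 422 and 425 for Gja1 and 0.852 and 0.857 for Pecam1. The part of these cell types in the Slc25 values was not tested.

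**Figure D3:**
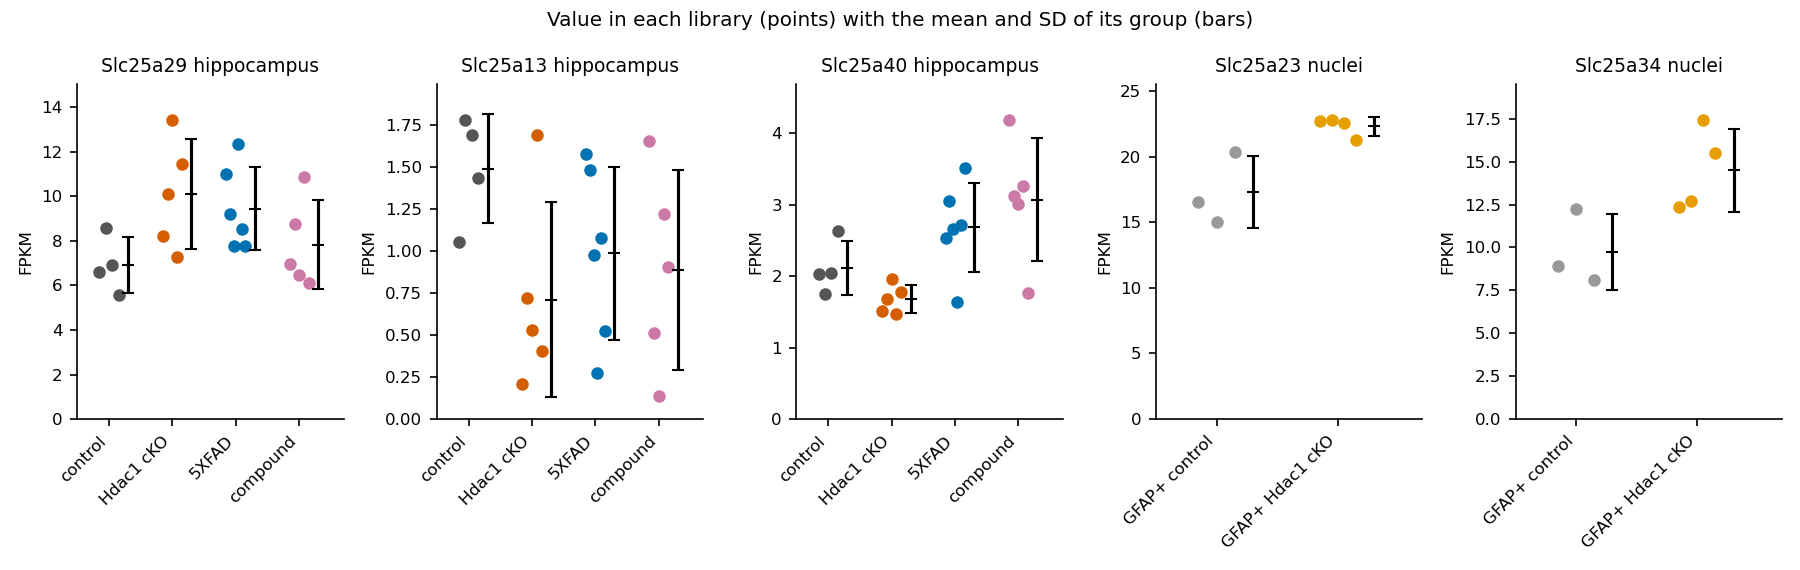
FPKM of 5 members in each library, as points, with the mean and SD of the group beside them. Slc25a29, Slc25a13 and Slc25a40 are shown in the 4 hippocampal groups, where neighbouring groups overlap, and Slc25a23 and Slc25a34 in the 2 groups of nuclei, where they do not.

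Whether the effect of Hdac1 loss depended on the 5XFAD transgenes was tested with an interaction term over the 20 hippocampal mice. Of 38 members 1 had an unadjusted p under 0.05, where 8.97% of all genes did, and 0 had an adjusted p under 0.05, as for all genes (0%, with 1290 genes at an unadjusted p under 0.05). The member was Slc25a29, whose Hdac1 cKO effect was 0.47 without and -0.25 with the transgenes. The difference was -0.72 ± 0.24 SE on the log2 scale (limma adjusted p = 0.394). For Slc25a23 it was -0.27 ± 0.13 SE (limma adjusted p = 0.564), and its unadjusted p fell under 0.05 in 7 of the 20 fits that left out 1 library. For Slc25a40 the interaction was 0.35 ± 0.23 SE and for Slc25a13 0.50 ± 0.35 SE (limma adjusted p = 0.669 and 0.689).

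By function, no class had more than 1 member with an unadjusted p under 0.05 in any of the 6 comparisons. The 9 nucleotide and cofactor carriers split into 5 positive and 4 negative changes in Hdac1 cKO against control and into 3 and 6 in compound against control, with 0 at an unadjusted p under 0.05 throughout. The 3 tested di- and tricarboxylate carriers, which move citrate, malate and oxoglutarate, had log2 fold changes of -0.15 to -0.04 in Hdac1 cKO, of -0.16 to 0.22 in 5XFAD and of -0.08 to -0.03 in compound mice against control. Of the uncoupling protein-like carriers, Slc25a14 stood at -0.11 in 5XFAD and 0.05 in Hdac1 cKO mice against control, and Slc25a27 at -0.23 and -0.08, with limma p-values of 0.253 or more. The 4 iron and glutathione carriers ran from -0.28 to 0.21 in Hdac1 cKO mice. Restricted to members with a mean of at least 5 FPKM, where replicates were tighter, the 95% interval lay within 1.5-fold for 21 of 24 in Hdac1 cKO against control, 20 of 24 in 5XFAD and in compound against control, 18 of 23 in compound against 5XFAD, 20 of 23 in compound against Hdac1 cKO and 15 of 32 in the nuclei.

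Other mitochondrial transport genes were read beside the family. The list held 37 genes of the pyruvate carrier, the calcium uniporter, sideroflexins, porins, uncoupling proteins and carrier import, of which 30 were in the files and 28 were tested in each comparison. Of the 28, 3 had an unadjusted limma p under 0.05 in Hdac1 cKO against control (11.7% of all genes), 2 in 5XFAD against control (10.7%), 1 in compound against control (10.5%), 4 in compound against 5XFAD (6.61%), 2 in compound against Hdac1 cKO (10.3%) and 1 in the nuclei (4.7%). For the interaction 3 of the 28 had an unadjusted limma p under 0.05 (8.97% of all genes), all with positive values. Of these 2 were also past 1.5-fold, as were 586 of the 14389 genes tested. None had an adjusted p under 0.05 by limma. Both genes in 5XFAD against control were lower. Smdt1, a subunit of the calcium uniporter, was at 789.6 ± 37.0 FPKM (SD, n = 4) in the controls and 665 ± 93.9 (n = 6) in the 5XFAD mice (-0.26 ± 0.11 SE, limma adjusted p = 0.418). Timm9, a chaperone of carrier import, was at 72.1 ± 9.22 FPKM in the controls and 57.1 ± 8.84 in the 5XFAD mice (-0.34 ± 0.13 SE, limma adjusted p = 0.365). The 4 genes in compound against 5XFAD, Mpc1, Micu2, Smdt1 and Sfxn3, were all higher, by 0.24 to 0.42 on the log2 scale. Sfxn3, a sideroflexin of the inner membrane, was at 19.4 ± 2.18 FPKM (SD, n = 4) in the controls, 25.1 ± 2.64 (n = 5) in the Hdac1 cKO, 22.1 ± 2.09 (n = 6) in the 5XFAD and 27.0 ± 4.03 (n = 5) in the compound mice. Its log2 fold changes against control were 0.36 ± 0.11 SE, 0.18 ± 0.11 SE and 0.45 ± 0.13 SE in that order (limma adjusted p = 0.229, 0.588 and 0.187). Tomm40, the channel through which carrier precursors enter, was at 21.5 ± 0.94 FPKM in the controls and 27.8 ± 3.09 in the Hdac1 cKO mice (0.35 ± 0.10 SE, limma adjusted p = 0.198). Ucp2, a carrier-family member outside the symbol rule, was at 1.19 ± 0.82 FPKM in the controls, 0.452 ± 0.101 in the Hdac1 cKO, 1.11 ± 0.59 in the 5XFAD and 1.33 ± 0.55 in the compound mice, so that the Hdac1 cKO mice had the lowest mean. Its log2 fold change was -0.52 ± 0.23 SE in Hdac1 cKO against control and 0.14 ± 0.27 SE in compound against control (limma adjusted p = 0.412 and 0.903). In compound against Hdac1 cKO it was 0.66 ± 0.18 SE (limma adjusted p = 0.114), the 1 DEG of the 28 in that comparison, where 3.55% of all genes were. Its Hdac1 cKO mean was under the filter of 0.5 FPKM, so that it was tested there only through the compound mice, and against control only through the controls, and neither value is read as support for a difference. The microglial markers given beside Slc25a40, at 103 to 120.3 and 188 to 350.2 FPKM in sum, moved in the same comparison, and their part in the Ucp2 values was not tested. Choroid plexus markers summed to 589 to 20450 FPKM in control and to 59.8 to 1632 in Hdac1 cKO hippocampi. Microglial markers summed to 91.6 to 122 FPKM in control, 178 to 240.3 in 5XFAD and 188 to 350.2 in compound hippocampi. Their part in the Smdt1, Timm9, Sfxn3 and Tomm40 values was not tested.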

How the data were processed

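Hippocampal RNA was sequenced by 3′ Digital Gene Expression and GFAP+ nuclei, sorted from cortex with GFAP and NeuN antibodies, by SMART-Seq v4. The authors aligned collapsed reads with TopHat and computed FPKM with Cufflinks 2.0.0 from the UCSC mm9 annotation, and the deposited FPKM values (fragments scaled by transcript length and by mapped reads) were used as given. For the nuclei these steps are not stated apart. Of 34 samples 27 were used. The others, 6 ChIP-seq samples and GFAP+ control 2, were not analysed here. FPKM values hold no counts, so no counting intervals were computed, and precision rests on the number of mice.

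Values were tested as log2(FPKM + 1) over genes whose mean in the samples compared reached 0.5 FPKM, with limma 3.58.1 (R 4.3.3, trend and robust moderation, Benjamini-Hochberg adjustment over all genes tested). Fold changes are on that log2 scale and understate changes of low genes. Each fit held only the groups compared, and the interaction used all 20 hippocampal libraries. Tests were two-sided. Single members also received an exact permutation test. The procedure was tested on simulated data. Alternatives were another pseudocount (0.1 FPKM), no filter, a stricter one (1 FPKM), quantile or median scaling, plain limma, all hippocampal groups in one fit, fold changes from mean FPKM, the replicate number as a block, a choroid plexus covariate and leaving out each library. Values per library (for 5XFAD the lowest, median and highest) are given for members with a p under 0.05 and a change of at least 1.25-fold in a comparison and for the most abundant member of each functional class. Slc25a2, Slc25a5, Slc25a18 and Slc25a24 were added after their values were seen. The members, classes and gene lists were chosen with earlier results of these data known. The p-values set a difference between groups against the spread between the mice sampled, which limma moderates over all genes tested.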

Additional observations from a re-analysis of the deposited data

Results flagged for a closer look

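Outlying libraries were looked for in 70 groups of members' values, and chance alone marks about 1 in 20 such groups. Slc25a13 was at 1.82 FPKM in the nuclei of GFAP+ Hdac1 cKO 3, with the other 3 libraries of the group at 0.755 to 0.782. Slc25a23 was at 21.3 FPKM in GFAP+ Hdac1 cKO 4, below the other 3 at 22.6 to 22.8. Slc25a11 was at 37.1 FPKM in 5XFAD 1, where the other 5 mice lay between 54.6 and 63.6, and that library had the lowest summed FPKM, 725060. Slc25a14 was at 21.2 FPKM in control 1, where the other 3 controls lay between 30.2 and 31.6. The Slc25a29 change with Hdac1 loss differed between mice without and with the 5XFAD transgenes by -0.72 on the log2 scale (limma interaction term, Benjamini-Hochberg adjusted p = 0.394).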

How the results depend on the processing

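The count of Slc25 DEGs moved by 1 or 2 members at most. In Hdac1 cKO against control it was 1 (Slc25a13), and became 2 with no filter (Slc25a2 added), 0 with quantile scaling, 0 with median scaling, 0 with the choroid plexus covariate, and between 0 and 2 when each library was left out (0 without control 3, Hdac1 cKO 3 or Hdac1 cKO 5, and 2 without control 1, Slc25a53 being added). The Slc25a2 call is not read as a result, as this gene was under the filter and listed at 0 in every Hdac1 cKO hippocampus. Without control 2 the 1 DEG was Slc25a45 and without Hdac1 cKO 1 it was Slc25a53, in place of Slc25a13. In compound against control it was 0, and between 0 and 1 when each library was left out (Slc25a13 without compound 1, Slc25a18 without compound 5). In compound against Hdac1 cKO it was 0, and became 1 (Slc25a40) with a pseudocount of 0.1 FPKM and 1 with fold changes from mean FPKM, and between 0 and 2 when each library was left out (2 without Hdac1 cKO 3 or compound 5, 1 without Hdac1 cKO 5). In the nuclei it was 0, and became 2 with no filter (Slc25a24 and Slc25a30). It was 1 (Slc25a24) with quantile scaling and with plain limma. These calls are not read as results, as Slc25a24 reached the filter only through the control libraries and Slc25a30 was under it. When each library was left out the nuclei count lay between 0 and 2, 2 without Hdac1 cKO 2 and 0 without Hdac1 cKO 4. It stayed at 0 in 5XFAD against control and in compound against 5XFAD in every alternative run. The interaction count was 1, and became 3 with no filter, 2 with the choroid plexus covariate and between 1 and 3 when each library was left out, with Slc25a23 the member most often added. The cause of these shifts was not tested.

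Samples with the same replicate number did not deviate together (correlations -0.113 to 0.0778). With the replicate number as a block the count became 0 in Hdac1 cKO against control, 1 in compound against control, 2 in the nuclei and 3 for the interaction.

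Each log2 fold change of Slc25a13, Slc25a29, Slc25a40, Slc25a23 and Slc25a34 given with an unadjusted p under 0.05 kept its sign in every alternative run. Slc25a40 kept its p under 0.05 in all 20 alternatives and the Slc25a29 interaction in all 28. Slc25a23 in the nuclei missed it with quantile scaling and with the block. Members below 1 FPKM, Slc25a13 among them, are limited by the few fragments behind such values.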
